A study of Fragaria x ananassa with 6 samples.

Results

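Fraa is the array's symbol for a strawberry Fra a protein gene, and it is described here in floral buds of plants that overexpress FaPRE1. The gene was found as the non-control spots that carry the name Fraa. These were 2 spots per array, both of 1 probe, out of 61657 non-control spots and 35117 named features on each array. The gene was selected on its measured ratio between FaPRE1-OX and control in these same arrays, so its levels and ratios are given as a description and without a test. The assignment to the Fra a family rests on the symbol alone. The files give no probe sequence or locus for it, the strawberry gene table used for names held 0 entries called Fraa, so it is not known which Fra a gene the probe reads.

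Fra a proteins belong to the PR-10 family, to which the birch pollen allergen Bet v 1 also belongs. They are small proteins with a hydrophobic cavity and are known from strawberry fruit as allergens that can bind flavonoids. Flavonoids are built from phenylpropanoid precursors, and their branches lead to the red anthocyanins, to the flavonols and to the flavan-3-ols that make up proanthocyanidins. The Fra a proteins have been linked to pigment formation in ripening receptacles, which are not the tissue measured here.

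The RNA was total RNA of floral buds, and the plant was the cultivated strawberry, Fragaria × ananassa. In the FaPRE1-OX group (3 samples) the plants carried FaPRE1 in the overexpression vector pK7WG2, whose 35S promoter is active in most plant tissues, and the buds are labelled as elongated. In the control group (3 samples) the plants carried the empty vector and the buds are labelled as normal. FaPRE1 is an atypical helix-loop-helix protein without a DNA-binding region. The labels speak of independent buds but not of separate transgenic lines. The spread between replicates may therefore hold no variation between lines, and it may be partly technical. If the buds of a group came from a single line, the construct and that line cannot be told apart. Each array held 1 FaPRE1-OX and 1 control sample in different dyes. FaPRE1-OX was in Cy3 on arrays 1 and 3 and in Cy5 on array 2. Sample titles of the FaPRE1-OX group read PRE3, whereas the other labels name FaPRE1.

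Libraries were compared over 23387 features that were well above background in at least 3 samples. Between 57.7% and 67.2% of spots passed that mark in FaPRE1-OX samples and between 62.8% and 67.4% in controls. The lowest share of all samples, 57.7%, was that of FaPRE1-OX 3, which was in Cy3 on array 3. On arrays 1, 2 and 3 the share was 67.4%, 67.2% and 63.9% in Cy5, against 63%, 62.8% and 57.7% in Cy3. It was thus lower in Cy3 on each array and lowest on array 3 in either dye. In its signals FaPRE1-OX 3 stood apart from its group. Across features its signals had an r of 0.959 to FaPRE1-OX 1 and 0.957 to FaPRE1-OX 2, while r was 0.996 between those samples and at least 0.994 among the controls. FaPRE1 itself was brighter in the FaPRE1-OX samples, with log2 signals of 8.59, 8.74 and 8.04 against 6.09, 6.64 and 6.37 in the controls, where it was well above background in 1 of 3 samples. Most features carry only an identifier, so the tissue was not checked against floral markers.

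The raw spots of Fraa were bright in every sample. On array 1 the median spot intensities of the 2 spots were 1416.5 and 1514.5 in FaPRE1-OX 1 (Cy3), against 8154.5 and 8350.5 in control 1 (Cy5). On array 2 they were 2950 and 3112 in FaPRE1-OX 2 (Cy5), against 3398 and 3486 in control 2 (Cy3). On array 3 they were 2415.5 and 2101 in FaPRE1-OX 3 (Cy3), against 6931.5 and 6097 in control 3 (Cy5). The FaPRE1-OX spots were thus the dimmer ones on all 3 arrays and in both dye orientations. The raw gap was small on array 2, where FaPRE1-OX was in Cy5. The median spot was brighter in Cy5 than in Cy3 by 0.74, 0.70 and 0.54 on the log2 scale on arrays 1, 2 and 3, and the loess normalisation takes this dye difference out. All spots of Fraa were well above background, at 30.8 to 56.0 times the local background in FaPRE1-OX and 83.9 to 109.9 times in control samples. None was saturated or marked as an outlier.

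After normalisation the Fraa signal was lower in each FaPRE1-OX sample than in any control. For replicates 1, 2 and 3 the log2 signals were 10.84, 10.92 and 11.76 in FaPRE1-OX buds, against 12.33, 12.37 and 12.45 in control buds. The groups did not overlap, and the highest FaPRE1-OX sample lay 0.56 below the lowest control. In 25.1% of all tested features the groups were likewise apart with FaPRE1-OX lower, which is printed as background and gives no support to a gene chosen for this contrast. The means were 11.17 ± 0.51 in FaPRE1-OX and 12.38 ± 0.06 in control (SD, n = 3 each). Fewer cells that express a gene and less RNA per cell cannot be told apart in such bud samples.

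**Figure D1:**
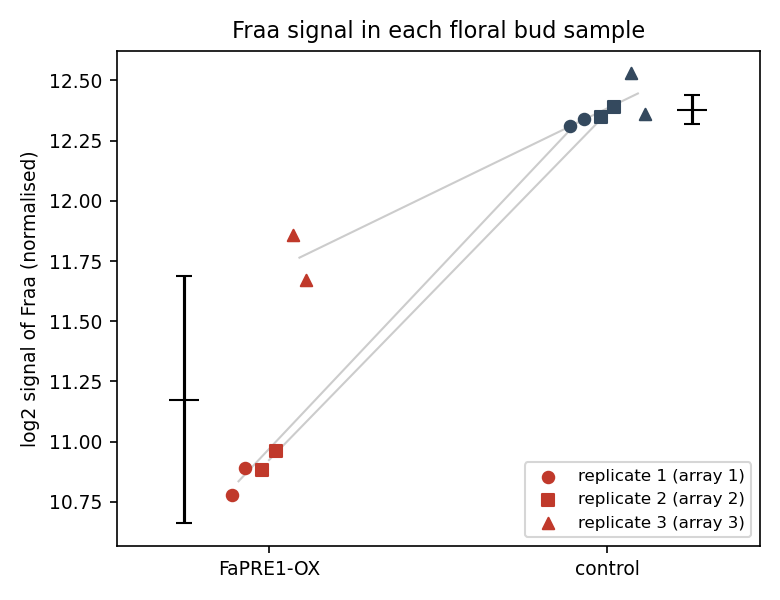
Normalised log2 signal of Fraa (y axis) in FaPRE1-OX and control floral buds, with both spots of each sample as points, the marker shape giving the replicate and array, grey lines joining the sample means of one array, and black bars giving group mean ± SD (n = 3). The FaPRE1-OX samples lie between 10.84 and 11.76 and the controls between 12.33 and 12.45, with FaPRE1-OX 3 above its group.

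The spread of Fraa was unequal between the groups. The controls spanned 0.12 on the log2 scale and the FaPRE1-OX samples 0.93, most of which came from FaPRE1-OX 3, at 0.89 above the mean of FaPRE1-OX 1 and 2. An SD larger than that of Fraa was found in 8.92% of the tested features in FaPRE1-OX and in 72.7% of them in control. The median SDs over all tested features were 0.16 in FaPRE1-OX and 0.09 in control, so Fraa was more variable than most features among the FaPRE1-OX samples and less variable than most among the controls. The 2 spots of one sample differed by 0.08 to 0.20 in FaPRE1-OX and by 0.04 to 0.17 in control. FaPRE1-OX 1 and 2 therefore differed by about as much as spots within a sample did, and so did the 3 controls. Spots of the same sample show spot error only, so the order of these samples was not settled. FaPRE1-OX 3 was separated by more than its spots from the samples on either side.

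The ratio on each array, FaPRE1-OX over control on the log2 scale, was -1.49, -1.44 and -0.68 on arrays 1, 2 and 3. It was below 0 on every array, as it was for 32.2% of all tested features. Both spots gave nearly the same ratio, at -1.52 and -1.46 on array 1, -1.46 and -1.42 on array 2, and -0.67 and -0.69 on array 3. The gap between the spots was 0.02 to 0.07, and 60.7% to 89.9% of duplicated probes were farther apart on the same array. The distance between array 3 and the other arrays was thus wider than the gap between spots. The fitted log2 difference was -1.27 ± 0.22 (SE, n = 3 arrays) with a dye term in the model, which is 2.40-fold lower in FaPRE1-OX. The dye term of Fraa was -0.18 ± 0.22 and so within its error. Without the dye term the difference was -1.21 ± 0.19.

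Among the tested features, 4.90% had a lower ratio than Fraa on array 1, 5.12% on array 2 and 7.56% on array 3. In the fitted difference 1147 features were lower, or 4.90%. Fraa thus held a similar place in each array's ratios although its ratio on array 3 was nearer to 0. For reference, 484 other features had a mean ratio on arrays 1 and 2 within 0.2 of the Fraa value of -1.47. On array 3 they had a median ratio of -0.63, with quartiles of -1.01 and -0.25, and 94.2% of them were closer to 0 than on the first arrays. They were picked by their ratios on arrays 1 and 2, so some shift toward 0 on array 3 is built into this comparison. Of these features 46.7% lay below Fraa on array 3 and 53.3% above it, so the smaller ratio of Fraa there was near the middle of these features. Among the 5878 features with all FaPRE1-OX samples below the controls, FaPRE1-OX 3 was the highest of its group in 63.4%. The part of this sample in the result for Fraa is given by the difference without replicate 3, which was -1.47.

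**Figure D2:**
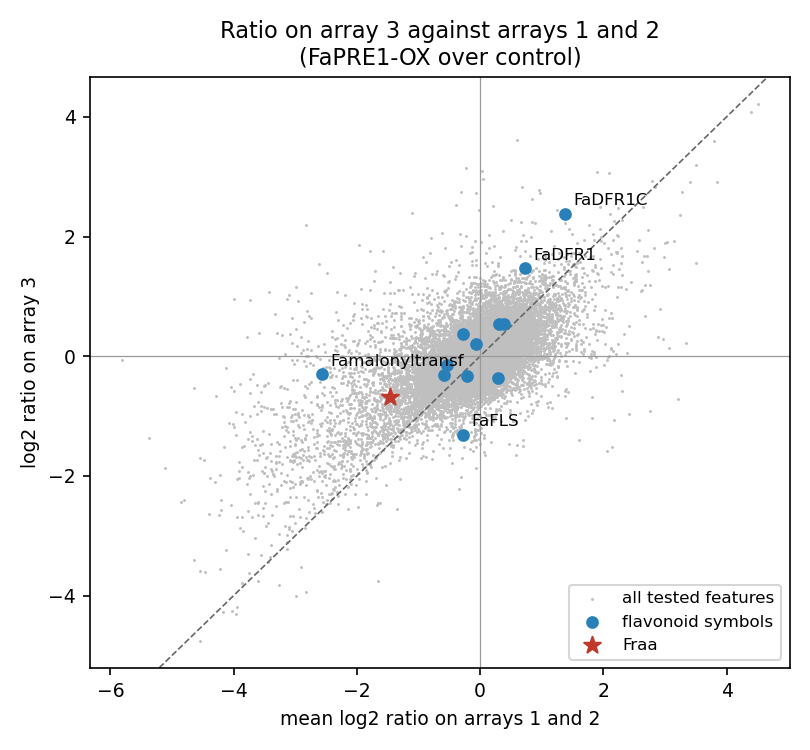
Log2 ratio of FaPRE1-OX over control on array 3 (y axis) against the mean log2 ratio on arrays 1 and 2 (x axis) for the 23387 tested features (grey), the 12 tested flavonoid symbols (blue) and Fraa (red star), with the dashed line marking equal values. Fraa lies at -1.47 on the x axis and -0.68 on the y axis, above the dashed line and so closer to 0 on array 3.

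By signal rank within a sample, Fraa was among the brighter features of every sample. For replicates 1, 2 and 3 it was brighter than 85.6%, 86.3% and 91.7% of the tested features in FaPRE1-OX buds, against 93.5%, 93.6% and 94.3% in control buds. In places counted from the brightest feature these were 3374, 3196 and 1937 in FaPRE1-OX, against 1519, 1487 and 1325 in control. Each FaPRE1-OX sample thus ranked Fraa lower than any control did, with FaPRE1-OX 3 the nearest to the controls. The signal of a probe also depends on how well it binds, so these places are not transcript abundances.

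Flavonoid genes were examined beside Fraa because Fra a proteins bind intermediates of this pathway. The array names 14 symbols of the pathway and its transport, and 12 of them were bright enough to be tested. They did not move as one group. The fitted difference was above 0 for 6 symbols and below 0 for 6, with a median of -0.05 on the log2 scale against -0.02 over all tested features. The ratio was above 0 on all arrays for 4 of 12 symbols, where it was so for 28.4% of all features, and below 0 on all arrays for 4, where the background was the 32.2% given above. It was mixed for the other 4. Levels did not overlap for 4 symbols lower in FaPRE1-OX and 4 higher, against 25.1% and 20.6% of all features. The lower ones include FaGST1, which was well above background only in controls. Of the 12 symbols 1, Famalonyltransf, had a lower fitted difference than Fraa.

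**Figure D3:**
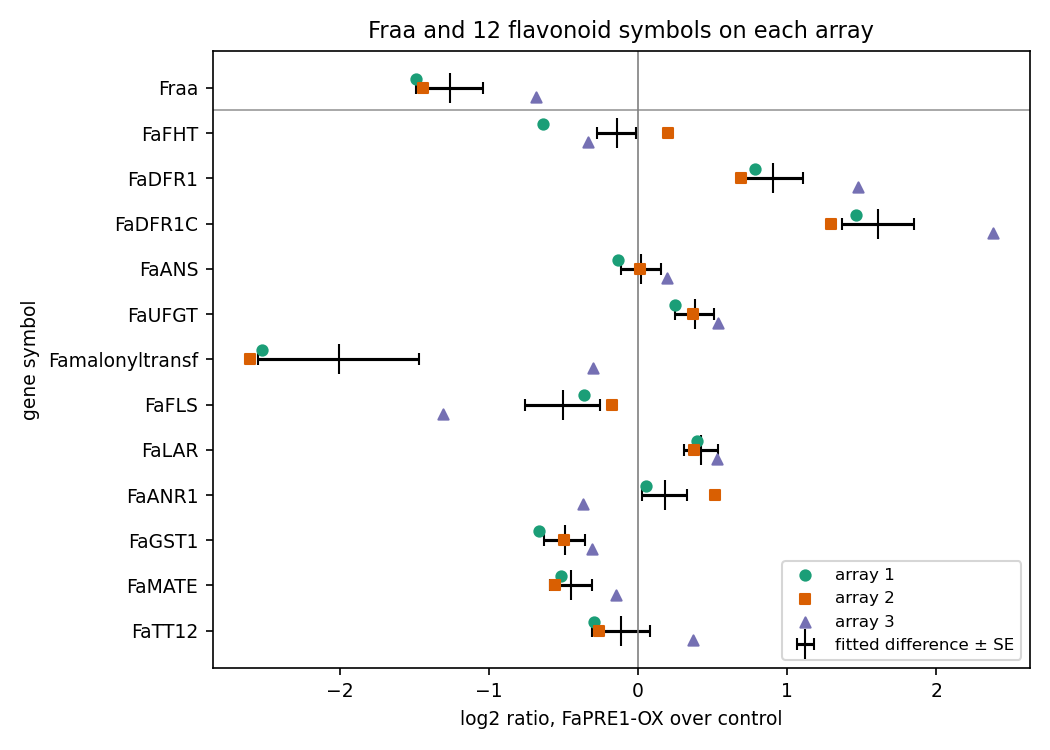
Log2 ratio of FaPRE1-OX over control (x axis) on each array for Fraa (top row) and the 12 tested flavonoid symbols, with 1 point per array and black bars for the fitted difference ± SE. Fraa lies at -1.49, -1.44 and -0.68, and the flavonoid symbols lie on both sides of 0.

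In limma with the dye term, 0 of the 12 flavonoid symbols and 0 of the 23387 features (0%) had an adjusted p under 0.05. An unadjusted p under 0.05 was found for 6 of the 12 symbols, FaGST1 among them, and for 6765 of the 23387 features. Without the dye term 3 of the symbols rose, where 9.8% of all features did, and 1 fell, where 12.8% of all features did. The symbol that fell was FaGST1, which passed the filter on background only through the controls. The fit without the dye term called 22.6% of all features in either direction and 4 of the 12 symbols. With 1 array left out, and hence no dye term, 10 of the 12 passed without replicate 3, where 59.6% of all features did, and 0 passed without replicate 1 or 2, where 0% of all features did.

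The symbols for dihydroflavonol reductase, which reduces dihydroflavonols to leucoanthocyanidins, had their fitted differences on the other side of 0 from Fraa. FaDFR1C had log2 signals of 12.34, 12.33 and 13.27 in FaPRE1-OX, against 10.88, 11.03 and 10.90 in control. FaDFR1 had 11.50, 11.49 and 12.11 in FaPRE1-OX, against 10.71, 10.80 and 10.64 in control. For both, as for Fraa, FaPRE1-OX 3 had the highest signal of its group, which brought Fraa nearer to the controls and took the FaDFR1 symbols farther from them. The fitted difference of FaDFR1C was 1.61 ± 0.24 with the dye term (limma adjusted p = 0.0791) and 1.71 ± 0.24 when that term was dropped (adjusted p = 0.0183). That of FaDFR1 was 0.91 ± 0.20 (limma adjusted p = 0.109) and 0.98 ± 0.18 (adjusted p = 0.0320) in these fits. Whether the probes of these symbols share targets was not tested.

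Of the other symbols on the way to anthocyanins, FaFHT (flavanone 3-hydroxylase) and FaANS (anthocyanidin synthase) overlapped between the groups. FaFHT had log2 signals of 15.81, 16.15 and 15.84 in FaPRE1-OX, against 16.45, 15.95 and 16.18 in control. Its dye term of 0.34 ± 0.13 was larger than its fitted difference of -0.14 ± 0.13, in contrast to Fraa, whose dye term was the smaller value. FaANS, read by 2 probes, had 13.84, 13.90 and 13.94 in FaPRE1-OX, against 13.97, 13.90 and 13.74 in control. Its probes gave fitted differences of 0.03 and 0.01. FaUFGT, which adds glucose to anthocyanidins, had 7.22, 7.31 and 7.23 in FaPRE1-OX, against 6.97, 6.94 and 6.70 in control, a dim signal in all samples. The size of its log2 difference depended on the background step, at 0.38 as reported and 1.09 with processed signals.

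Famalonyltransf, named for a malonyltransferase, an enzyme class that acylates anthocyanins, was the symbol with the lowest fitted difference. Its log2 signals were 7.85, 7.75 and 10.14 in FaPRE1-OX, against 10.38, 10.36 and 10.44 in control. It shared with Fraa a narrow control group and a high FaPRE1-OX 3, but FaPRE1-OX 3 was 0.30 below control 3, compared with 0.68 for Fraa. Its fitted difference was -2.01 ± 0.54 with the dye term (limma adjusted p = 0.137) and -1.81 ± 0.52 when that term was dropped (adjusted p = 0.0754). The value rested on which array was left out, at -2.56 without replicate 3 (limma adjusted p = 3.38e-11), -1.45 without replicate 1 and -1.41 without replicate 2 (adjusted p = 0.326 and 0.303). Each of these fits used 2 arrays. The fit without replicate 3 measures the agreement of arrays 1 and 2 alone, and it called 59.6% of all features. Ratios over all tested features had an r of 0.963 between arrays 1 and 2, against 0.653 and 0.616 with array 3.

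The flavonol and flavan-3-ol branches held symbols on both sides of 0. FaFLS, for flavonol synthase, had log2 signals of 6.90, 6.83 and 6.90 in FaPRE1-OX, against 7.26, 7.01 and 8.21 in control, so its gap on array 3 came from a high control. FaLAR (leucoanthocyanidin reductase) had 13.68, 13.66 and 13.69 in FaPRE1-OX, against 13.29, 13.28 and 13.16 in control, with a fitted difference of 0.42 ± 0.11 (limma adjusted p = 0.139). When the dye term was dropped FaLAR rose by 0.43 ± 0.08 (limma adjusted p = 0.0325). FaANR1 (anthocyanidin reductase) overlapped between the groups, at 16.09, 16.15 and 15.53 in FaPRE1-OX, against 16.04, 15.63 and 15.90 in control. Unlike Fraa, it was lowest of its group in FaPRE1-OX 3.

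The transport symbols FaGST1, FaMATE and FaTT12 are named for a glutathione transferase and for transporters that move flavonoids into the vacuole. Their ratios were negative on arrays 1 and 2, as for Fraa, and so were those of Famalonyltransf and FaFLS. On array 3 FaTT12 was at 0.37, on the other side from Fraa. FaGST1 was well above background in 3 controls and in no FaPRE1-OX sample. Its levels were 6.23, 6.16 and 6.53 in FaPRE1-OX, against 6.90, 6.66 and 6.84 in control. It thus passed the filter only through the controls, and its p-values are not given. The probe that passed read 1.40-fold lower in FaPRE1-OX, where it was not well above background, so the size is uncertain. The size also depended on the background step. The log2 difference was -0.49 as reported, -0.81 with an offset of 16 and -2.36 with processed signals. It was -0.27 when the dim second probe of FaGST1 was averaged in. FaMATE had 7.71, 7.77 and 7.94 in FaPRE1-OX, against 8.23, 8.34 and 8.09 in control. FaTT12 overlapped between the groups, at 7.20, 7.11 and 7.50 in FaPRE1-OX and 7.50, 7.38 and 7.13 in control. Like Fraa, FaMATE and FaTT12 had their highest FaPRE1-OX signal in sample 3.

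FaANR2, FaIFR1 and Famyb10 were well above background in 0 samples and were not tested. Famyb10 regulates anthocyanin synthesis in ripening fruit. FaBet, a symbol whose meaning the files do not give, was well above background in 0 of 3 FaPRE1-OX samples and 1 of 3 controls, with log2 signals of 6.15 to 6.30 in FaPRE1-OX and 6.15 to 6.36 in control.

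The features nearest to Fraa in pattern were sought over the 6 samples. The measure was the root mean square difference of the log2 signals, after each feature's own mean was taken off. Of the 23386 other tested features, 38 lay within 0.1 of Fraa and 362 within 0.2. The nearest gene models were gene07511, at 0.05, and gene35013, at 0.07. The log2 signals of gene07511 were 9.21, 9.18 and 9.98 in FaPRE1-OX, against 10.66, 10.69 and 10.76 in control. Those of gene35013 were 8.04, 7.96 and 8.79 in FaPRE1-OX, against 9.46, 9.46 and 9.62 in control. Both shared with Fraa the narrow controls and the raised FaPRE1-OX 3, and the files pair neither identifier with a name.

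Among the 36 tested gene symbols other than Fraa, the nearest were FaGalur, at 0.23 and place 560 among all features, and FabHLH1, at 0.28 and place 941. FaGalur encodes a galacturonate reductase of ascorbate synthesis, and FabHLH1 is named as a helix-loop-helix transcription factor. FaGalur had log2 signals of 8.11, 8.04 and 9.35 in FaPRE1-OX, against 10.12, 9.99 and 10.09 in control. FabHLH1 had 8.13, 7.93 and 8.40 in FaPRE1-OX, against 9.02, 8.93 and 8.93 in control. The flavonoid symbol nearest to Fraa was FaGST1, at 0.41 and place 2322. It was not well above background in any FaPRE1-OX sample, so its likeness rests partly on background signal. The next was FaMATE, well above background in every sample, at 0.47 and place 3217. The farthest was FaDFR1C, at 1.46 and place 23206. A feature was near Fraa by this measure where both its difference between the groups and the place of FaPRE1-OX 3 were alike, and the samples share arrays in pairs.

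**Figure D4:**
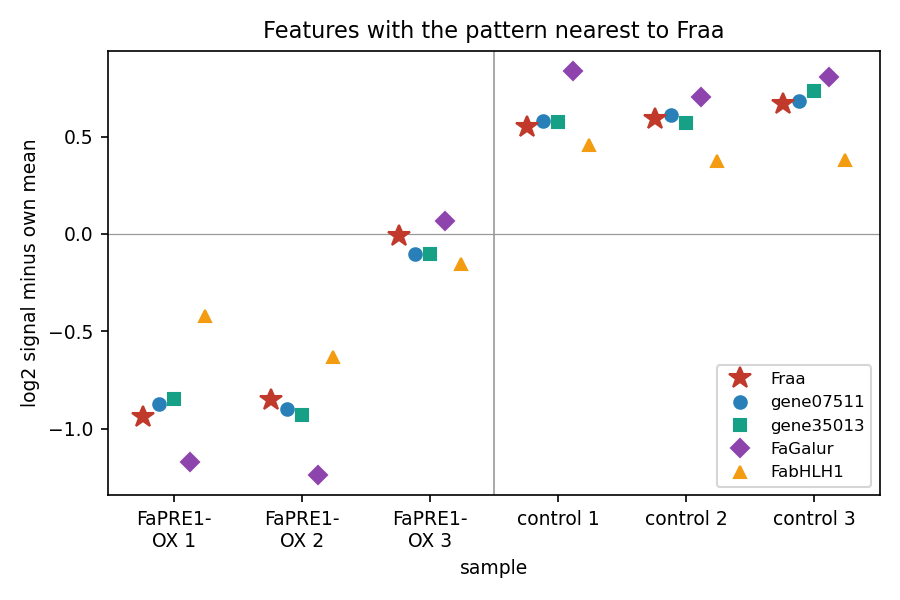
Log2 signal minus each feature's own mean over the 6 samples (y axis) in each FaPRE1-OX and control sample (x axis) for Fraa and the 2 gene models and 2 gene symbols nearest to it. The gene models lie within 0.05 and 0.07 of Fraa by root mean square difference, while FaGalur spreads wider and FabHLH1 less wide than Fraa.

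The fitted difference of Fraa kept its sign however the arrays were processed. It was below 0 in 15 of 15 other settings, between -1.47 and -1.06. This count is no independent support, since Fraa was selected on this ratio. Its ratio was below 0 on every array, so leaving out or averaging arrays could not change the sign. The other filters, marked spots kept and no replicate block returned the reported value of -1.265 unchanged. Both ends of the range came from leaving out 1 array, at -1.47 without replicate 3 and -1.06 without replicate 1. The scanner software's own processed signals gave -1.14. With these signals Fraa was brighter than 84.5% to 91.3% of features in FaPRE1-OX samples and 92.8% to 93.9% in controls. With a background offset of 16 in place of 50 the difference was -1.28.

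**Figure D5:**
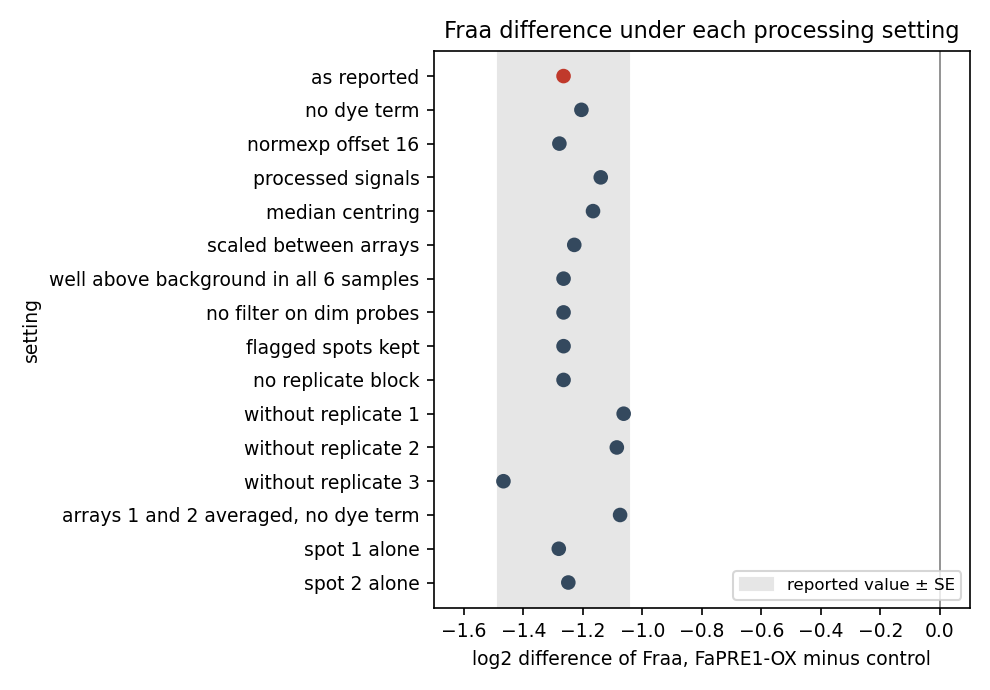
Log2 difference of Fraa between FaPRE1-OX and control (x axis) as reported (red) and in 15 other settings (dark points), with the grey band giving the reported value ± SE. All points lie between -1.47 and -1.06, and the farthest from the reported -1.27 are those without replicate 1 or 3.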

How the data were processed

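Scanner output of 3 arrays with 62976 spots each was analysed. The authors deposited median spot and background intensity, processed signal intensity and spot flags (coded as other values in the deposited files) for Cy3 and Cy5, linear in scale, from Agilent Feature Extraction 10.7 per the submitters' processing notes. All arrays shared 1 slide and 1 scan. Groups, replicates and dyes came from the labels. Computation used R 4.3.3 and limma 3.58.1. Median intensities were background-corrected by normexp (offset 50) and normalised by loess within arrays, with control spots at weight 0. Outlier flags removed 417 spots over the arrays. Replicate spots gave 1 mean per probe, and passing probes 1 mean per feature. To pass, a probe needed a spot well above background in 3 or more samples. The ratio of FaPRE1-OX over control was fitted with lmFit and eBayes with a dye term (1 residual degree of freedom, or 2 without it), two-sided, with Benjamini-Hochberg adjustment over 23387 features and a threshold of 0.05. Levels are log2 signals after loess and Aquantile. The fit was tested on simulated data with errors independent between arrays, so a sample that stands apart across many features was not covered. The number of arrays limits the precision.

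Replicate numbers pair samples because the labels put same-numbered samples on 1 array. Their deviations from group means correlated at 0.167, 0.179 and 0.135, against -0.195 to 0.071 between numbers. The ratio holds this pairing as a block.

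Fraa, the flavonoid symbols and the lists were chosen with earlier results of these data known. The rule for names took in Fraa, all 14 flavonoid symbols, Famyb10, FaBet and the 2 gene symbols and 2 gene models nearest to Fraa in pattern. FaPRE1 was added as the targeted gene. Alternatives covered the dye term, background, normalisation, filters, flags, the replicate block, single spots and left-out replicates.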

Additional observations from a re-analysis of the deposited data

How the results depend on the processing

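The count of 0 features past the adjusted threshold became 4245 with no replicate block (6 channels as separate samples), 5293 when the dye term was dropped, 1428 with processed signals, 1207 with ratios scaled between arrays, 1107 with median centring and 900 with an offset of 16, and leaving out single replicates gave 0 to 13949, the highest without replicate 3. It stayed 0 with either other filter, with marked spots kept and with arrays 1 and 2 averaged. The count of flavonoid symbols called became 4 with no replicate block, 4 when the dye term was dropped and 2 with processed signals, and leaving out single replicates gave 0 to 10. FaGST1, which passed the filter only through the controls, is counted with the dye term dropped, with processed signals and without replicate 3. Residual degrees of freedom were 1 as reported and 1 with a replicate left out (which also drops the dye term), 2 without the dye term and 3 with no replicate block, and the cause of these moves was not tested. The Fraa difference moved by less than the SD of its 3 array ratios (0.45) in 15 of 15 settings, some of which left it unchanged. Leaving out or averaging arrays could not move it by as much as that SD, so this count is no support. The median of the flavonoid symbols ran from -0.14 to 0.06 over the left-out replicates, on both sides of 0. The median signal rank of Fraa was 90.9% in FaPRE1-OX and 95.8% in control without the filter on dim probes (86.3% and 93.6% as reported), and 92.9% in control with processed signals. Symbols near 0 changed sign. With arrays 1 and 2 averaged FaANR1 was at -0.043 and FaTT12 at 0.042. Over the left-out replicates FaANR1 ran from -0.16 to 0.29, FaTT12 from -0.28 to 0.051 and FaANS from -0.063 to 0.10. Of 155 values of single flavonoid symbols in other settings, 129 kept direction and side of the threshold, 20 passed it newly and 6 changed sign. Of those that passed newly, 10 came from the setting without replicate 3, where 59.6% of all features were called. A further 4 came from dropping the dye term, where 22.6% of all features were called. With 3 arrays, 1 of them in the second dye orientation, small differences cannot be resolved.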
